A study of Cavia porcellus with 12 samples.

Results

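The tumour necrosis factor (TNF) superfamily and the nuclear factor kappa B (NF-kB) machinery were followed in the liver transcriptome of guinea pigs with nonalcoholic steatohepatitis (NASH). The genes were chosen by symbol from the deposited table of human orthologue symbols: every TNFSF, TNFRSF, TNFAIP, NFKB and TRAF1 to TRAF7 symbol, together with *TNF*, *LTB*, *LTBR*, *RELA*, *RELB*, *REL*, *BIRC2*, *BIRC3*, *RIPK1*, *TRADD*, *FADD*, *IKBKB* and *CHUK*. This gave 47 of the 11896 symbols in the table, 9 ligands, 9 receptors, 11 adaptors and ubiquitin ligases, 2 kinases, 4 NF-kB subunits, 6 genes of the inhibitor of kappa B (IkB) family and 6 TNFAIP genes. *REL* and *TRAF2* were not analysed here. Controls were 6 female Dunkin Hartley guinea pigs fed chow, and the NASH group was 6 females of the same strain fed a high-fat diet with sucrose and cholesterol, all for 25 weeks. The animals were 10 weeks old on delivery, and all came from a single breeder. Animals with NASH had been picked for bridging fibrosis, whereas controls were drawn at random among chow-fed animals without NASH or fibrosis, so group, diet and histological selection cannot be told apart.

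Ligands of the TNF superfamily are trimeric proteins on the cell surface that can be shed, and they bind receptors that either recruit TRAF adaptors or, through a death domain, TRADD, FADD and RIPK1. In the classical NF-kB pathway, the IKK complex with the kinases IKBKB and CHUK marks IkB proteins for degradation and so frees dimers of RELA and the NFKB1 product. In the alternative pathway, receptors such as LTBR and TNFRSF12A relieve the TRAF3-dependent degradation of the kinase MAP3K14, and dimers of RELB and the processed NFKB2 product result. In the liver, TNF from macrophages can kill hepatocytes or make them proliferate, and NF-kB activity in hepatocytes protects them against this killing.

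Guinea pigs with NASH had higher RNA levels of most receptors, of all 4 NF-kB subunits measured and of most TNFAIP genes, while the kinases IKBKB and CHUK stayed under the threshold. Of the 47 genes, 29 rose and 2 fell in NASH by edgeR's quasi-likelihood test (Benjamini-Hochberg adjusted p under 0.05 over all 11896 symbols), and 16 did not pass. Over all symbols, 53.9% passed this test, 27.9% higher and 26.0% lower, against 61.7% higher and 4.26% lower among the 47. The 47 genes had a median log2 fold change of 0.57, and all symbols one of 0.0018. Of the genes that rose, 18 did so by 1 or more on the log2 scale, where 12.8% of all symbols passed the test with such a rise. In 24 genes every animal with NASH lay above every control and in 1 gene every animal lay below, where 33.7% of all symbols were without overlap, 18.4% higher and 15.3% lower. Levels are given as CPM, read counts relative to the library size after scaling with edgeR's TMM factors, and they were not compared between genes because CPM does not account for transcript length. In bulk liver RNA, fewer cells of a type and less RNA per cell cannot be told apart. With library size alone as the scaling, the median log2 fold change of all symbols moved to 0.48 and that of the 47 genes to 1.05. This scaling moves all genes by about the same amount, so the distance between the medians is fixed and is no check of it.

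**Figure D1:**
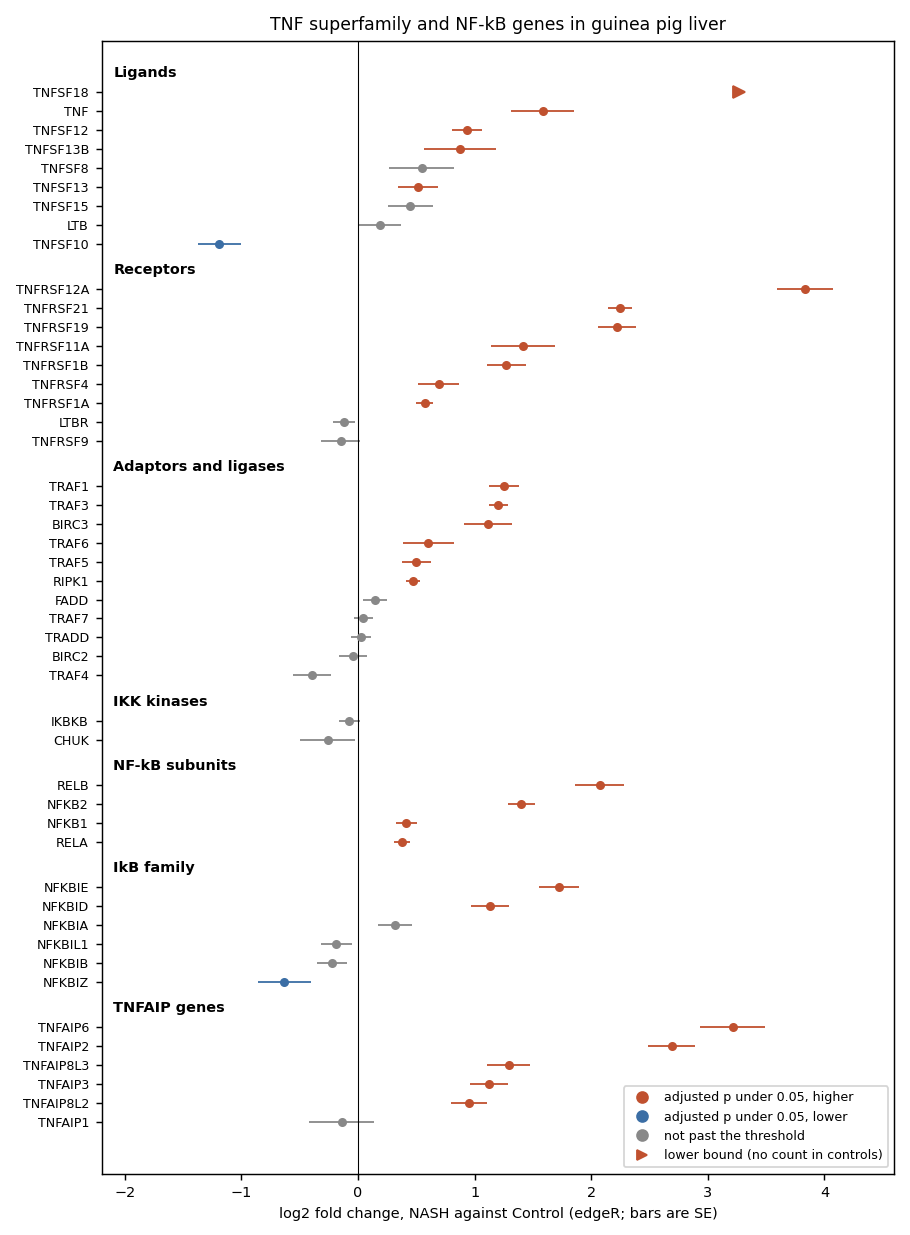
Log2 fold change of NASH against control for the 47 genes, ordered by role, with the standard error from edgeR as bars. The 29 genes that rose are in red, the 2 that fell in blue and the 16 that did not pass the test in grey, and the triangle marks *TNFSF18* at its lower bound of 3.27 because no control had a count.

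Markers of several liver cell types moved together with the groups. The summed CPM of 5 of 6 listed hepatocyte markers ranged from 83488 to 112639 in controls and from 27663 to 49071 in NASH. Most of that sum was *ALB*, with a mean of 74883 CPM in controls and 30535 CPM in NASH. Of the 5, 4 fell and *APOA1* did not pass (log2 fold change −0.83, edgeR adjusted p = 0.0597), and the groups overlapped for *APOA1* and *CYP2E1*. The sum of 5 of 6 cholangiocyte markers ranged from 90.3 to 121 in controls and from 294 to 523 in NASH, and that of 6 of 6 stellate cell markers from 199 to 266 and from 350 to 583. Of the latter 4 rose, *COL1A1* by most (log2 fold change 4.21), *DES* did not pass (−0.35) and *LRAT* fell without overlap (−0.57). Of 8 T and NK cell markers, all measured, the sum ranged from 74.0 to 125.2 in controls and from 40.8 to 74.4 in NASH. Most of that sum was *CD3E*, with a mean of 69 CPM in controls and 33 CPM in NASH. It fell, as did *NKG7*, while the other 6 did not pass, and the median log2 fold change of the 8 was −0.05. Sums overlapped between groups for 4 further types. Among 4 of 6 B and plasma cell markers (10.4 to 30.5 in controls and 22.5 to 31 in NASH), *CD79A*, *CD79B* and *MS4A1* rose, with log2 fold changes of 1.49, 1.62 and 1.12, and *JCHAIN* did not pass (−0.19), at 23.1 CPM in its highest control. Among 5 of 8 macrophage markers (373 to 594 and 422 to 592), *CD68* rose without overlap (log2 fold change 0.69) and *MARCO* fell (−1.27). Among 6 of 6 endothelial markers (460 to 596 and 503 to 737), 3 rose, *VWF* by most (1.46), and *LYVE1* fell (−0.81). Of 3 of 6 neutrophil markers (0.974 to 3.76 and 3.54 to 10.5), 2 rose. The livers were not perfused, and 4 of 5 erythroid markers summed to between 57.4 and 172 in controls and to between 427 and 4531 in NASH. No measured marker was at or under 3 counts in all animals. The part of these shifts in the values below was not tested. No batch is given in the labels used here. The total count of an animal lay between 16980274 and 33091460, and the TMM factors ran from 0.804 to 0.875 in controls and from 1.12 to 1.24 in NASH.

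Among the 9 ligands, *TNF*, *TNFSF12*, *TNFSF13*, *TNFSF13B* and *TNFSF18* rose and *TNFSF10* fell. Thus 55.6% were called higher and 11.1% lower, against 27.9% and 26.0% of all symbols. *TNF*, the founding cytokine of the family, had 0.357 CPM in the lowest control, 0.713 at the median and 1.35 in the highest, and 1.75, 2.23 and 3.21 CPM in NASH. All animals with NASH were above all controls, although the gene had few reads, 5 to 29 counts in controls and 59 to 126 in NASH. The level rose 3.0-fold (log2 fold change 1.58, SE 0.27, edgeR adjusted p = 0.000325). *TNFSF18*, the ligand of the T cell receptor GITR, had no count in any of the 6 controls, which allows up to 0.214 CPM in the control with the smallest scaled library, and between 1.5 and 2.83 CPM (median 1.92) in NASH. Each animal with NASH had at least 44 counts. Against the limit of 3 counts per library the mean of the 6 animals with NASH, 2.06 CPM (SD 0.595), was at least 9.63-fold higher (edgeR adjusted p = 7.57e-06).

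*TNFSF12* (TWEAK), a ligand linked to tissue repair and progenitor cell growth, had between 3.21 and 4.62 CPM in controls (median 3.95) and between 6.34 and 9.66 CPM in NASH (median 7.38). Groups were apart, with a log2 fold change of 0.93 (SE 0.13, edgeR adjusted p = 6.46e-05). The B cell survival factors *TNFSF13B* (BAFF) and *TNFSF13* (APRIL) rose, with groups that overlapped. *TNFSF13B* was between 2.34 and 6.00 CPM in controls and between 3.91 and 11.7 CPM in NASH (log2 fold change 0.87, SE 0.31, edgeR adjusted p = 0.0292), with NASH animal 20 highest. Leaving out 1 animal at a time, its edgeR adjusted p exceeded 0.05 for 7 of the 12 animals (controls 5, 31, 32 and 56, NASH animals 9, 20 and 65), the largest being 0.0718 without NASH animal 20. *TNFSF13* was between 1.08 and 1.75 CPM and between 1.68 and 2.41 CPM (log2 fold change 0.51, SE 0.17, edgeR adjusted p = 0.0207), and without NASH animal 2 its adjusted p was 0.0517.

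*TNFSF10* (TRAIL), a death ligand that acts on receptors with a death domain, went the other way. It had between 321 and 528 CPM in controls (median 415) and between 122 and 251 CPM in NASH (median 177). The highest animal with NASH, number 11, was below the lowest control, and the level was 2.28-fold lower (log2 fold change −1.19, SE 0.18, edgeR adjusted p = 0.000147). With library size alone as the scaling, the groups overlapped. Ligands under the threshold were *LTB*, which forms lymphotoxin heterotrimers (log2 fold change 0.19, SE 0.18), *TNFSF8*, the CD30 ligand (0.54, SE 0.28), and *TNFSF15*, a vascular ligand of T cells (0.45, SE 0.20). Their edgeR adjusted p-values were 0.409, 0.118 and 0.0702. *TNFSF15* passed in 8 of the 23 alternatives, among them without control 10 (0.0445), without control 32 (0.0397) and without NASH animal 2 (0.0358).

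Of the 9 receptors 7 rose and none fell, with 1.27 as the median log2 fold change, the highest of any role. That was 77.8% higher, against 27.9% of all symbols. *TNFRSF12A* (Fn14), the receptor of TNFSF12, had between 2.42 and 6.56 CPM in controls (median 4.53) and between 53.6 and 83.1 CPM in NASH (median 61.0). Its counts went from at most 143 in a control to at least 1635 in an animal with NASH. The rise was 14.3-fold (log2 fold change 3.83, SE 0.24, edgeR adjusted p = 1.49e-07), with values from 3.70 to 3.98 on the log2 scale when single animals were left out.

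*TNFRSF21* (DR6), a receptor with a death domain, had between 14.7 and 19.7 CPM in controls (median 16) and between 66.0 and 93.1 CPM in NASH (median 79.0). It was 4.75-fold higher (log2 fold change 2.25, SE 0.10, edgeR adjusted p = 2.93e-08). *TNFRSF19* (TROY), a receptor of epithelial progenitor cells, had between 7.22 and 10.3 CPM (median 8.84) and between 25.8 and 56.9 CPM (median 41). NASH animal 65 was lowest and NASH animal 20 highest, and both were above every control (log2 fold change 2.22, SE 0.17, edgeR adjusted p = 4.47e-07). *TNFRSF11A* (RANK), best known from osteoclasts, had between 0.373 and 1.23 CPM in controls (median 0.764) and between 1.67 and 2.53 CPM in NASH (median 2.14). It rested on at most 30 counts in a control, and the groups did not overlap (log2 fold change 1.42, SE 0.28, edgeR adjusted p = 0.00083).

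Both receptors of TNF rose. *TNFRSF1A*, the widely expressed receptor with a death domain, had between 24.8 and 31.3 CPM in controls (median 26.9) and between 36.4 and 46.1 CPM in NASH (median 41.3), which is 1.49-fold (log2 fold change 0.57, SE 0.07, edgeR adjusted p = 3.71e-05). *TNFRSF1B*, which lacks a death domain and is found mainly on immune and endothelial cells, had between 4.0 and 8.97 CPM (median 7.66) and between 13.9 and 22.2 CPM (median 17.2), or 2.41-fold (log2 fold change 1.27, SE 0.17, edgeR adjusted p = 4e-05). Neither gene overlapped between groups. In controls, animal 5 was well below the other 5 for *TNFRSF1B*, and without it the log2 fold change was 1.15. *TNFRSF4* (OX40), a costimulatory receptor of T cells, had between 4.2 and 8.86 CPM in controls and between 7.99 and 11 CPM in NASH (log2 fold change 0.69, SE 0.17, edgeR adjusted p = 0.0047), with an overlap at control 5. Under the threshold were *TNFRSF9* (4-1BB), another costimulatory receptor (log2 fold change −0.15, SE 0.16), and *LTBR*, the lymphotoxin beta receptor (−0.12, SE 0.09), with edgeR adjusted p-values of 0.464 and 0.287.

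**Figure D2:**
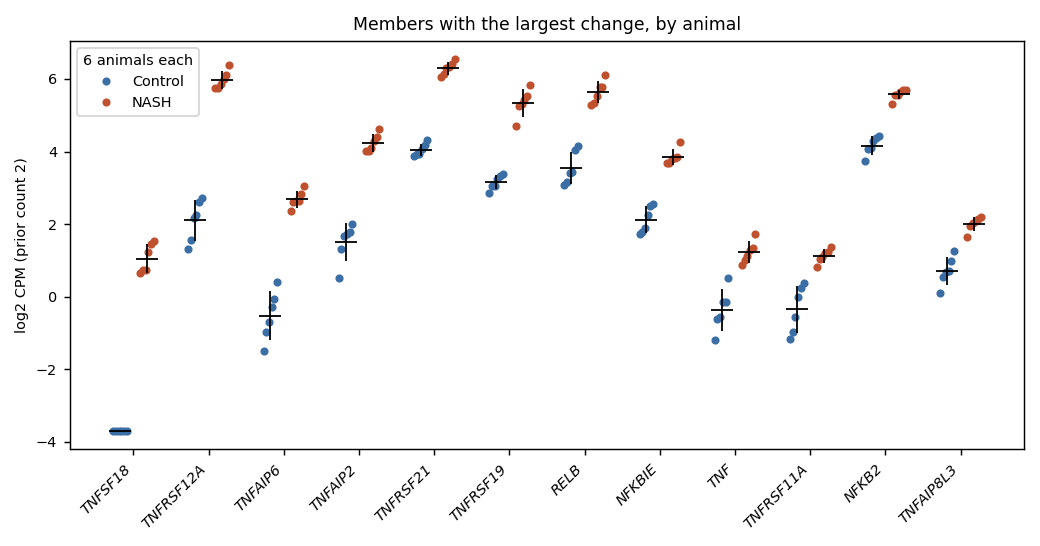
Log2 CPM of the 12 genes that passed the threshold with the steepest differences in either direction, with 1 point per animal, controls in blue and NASH in red, and the mean ± SD of 6 animals in black. All 12 genes were higher in every animal with NASH than in every control, and the 6 controls of *TNFSF18* share a point because none had a count.

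Of the 11 adaptors and ubiquitin ligases, 6 rose, 5 did not pass and none fell. The share called in either direction, 54.5%, was near the 53.9% of all symbols, of which 27.9% were higher and 26.0% lower. *TRAF1*, an adaptor whose own gene is a known NF-kB target, had between 6.43 and 9.73 CPM in controls (median 7.64) and between 13 and 22.4 CPM in NASH (median 18.6), a log2 fold change of 1.25 (SE 0.13, edgeR adjusted p = 6.04e-06). *TRAF3*, which keeps MAP3K14 low in resting cells, was between 6.22 and 7.94 CPM (median 6.60) and between 13.8 and 17.6 CPM (median 15.4). Its groups were apart, with a log2 fold change of 1.2 (SE 0.08, edgeR adjusted p = 2.67e-07).

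*BIRC3* (cIAP2), a ubiquitin ligase of the TNF receptor complex and NF-kB target, had between 94.4 and 225 CPM in controls (median 116) and between 272 and 355 CPM in NASH (median 312). Controls 5 and 56, at 225 and 199 CPM, stood above the other controls, which were at most at 116 CPM, and still below every animal with NASH (log2 fold change 1.12, SE 0.21, edgeR adjusted p = 0.000571). *BIRC2* (cIAP1), the related ligase, had between 44.0 and 72.9 CPM in controls (median 50.6) and between 46.2 and 59.7 CPM in NASH (median 49.6), with a log2 fold change of −0.04 (SE 0.12, edgeR adjusted p = 0.773). Smaller rises were those of *RIPK1*, the kinase at the branch of survival and death (log2 fold change 0.47, SE 0.06), *TRAF5* (0.50, SE 0.12) and *TRAF6*, which also serves Toll-like and interleukin 1 receptors (0.60, SE 0.22). Their edgeR adjusted p-values were 2.56e-05, 0.00442 and 0.0318. *RIPK1* and *TRAF5* did not overlap between groups. *TRAF6* overlapped and had an edgeR adjusted p above 0.05 in 6 of the 12 fits without a single animal (controls 5, 10 and 31, NASH animals 9, 11 and 65), with 0.0755 without NASH animal 9 as the largest.

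The death domain adaptors TRADD and FADD, *TRAF7* and *TRAF4* did not pass the test. *TRADD* was between 13.2 and 17.1 CPM in controls and between 13.7 and 17.5 CPM in NASH (log2 fold change 0.03, SE 0.09), and *FADD* between 15.9 and 23.6 and between 18.8 and 24.7 CPM (0.15, SE 0.10). The log2 fold change of *TRAF7* was 0.05 (SE 0.08). For *TRAF4* it was −0.40 (SE 0.17, edgeR adjusted p = 0.059). Here control 32, at 25.5 CPM, lay far below the other controls, which were between 41.4 and 53.2 CPM, while NASH ranged from 26.6 to 40.8 CPM. Without control 32 *TRAF4* fell by 0.51 on the log2 scale and passed (edgeR adjusted p = 0.00532), as it did without NASH animal 65 (edgeR adjusted p = 0.0299) and with DESeq2 on all animals (adjusted p = 0.0436).

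All 4 NF-kB subunits measured rose, where 27.9% of all symbols did. *RELB*, a subunit of the alternative pathway, had between 8.43 and 17.7 CPM in controls (median 10.6) and between 39.2 and 68.8 CPM in NASH (median 50.7). The groups were widely apart, a rise of 4.21-fold (log2 fold change 2.07, SE 0.21, edgeR adjusted p = 5.41e-06). *NFKB2*, its usual partner, had between 13.2 and 21.3 CPM (median 18.2) and between 40.0 and 51.6 CPM (median 48.2), a rise of 2.64-fold (log2 fold change 1.40, SE 0.11, edgeR adjusted p = 7.61e-07).

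The subunits of the classical pathway rose by less. *RELA* had between 33.2 and 40.7 CPM in controls (median 36.9) and between 44.1 and 51.6 CPM in NASH (median 47.9), a 1.3-fold rise without overlap (log2 fold change 0.37, SE 0.07, edgeR adjusted p = 0.000561). *NFKB1* had between 25.0 and 32.5 CPM (median 28.8) and between 32.2 and 42.3 CPM (median 39.3), or 1.33-fold (log2 fold change 0.41, SE 0.09, edgeR adjusted p = 0.00144). For *NFKB1* the lowest animal with NASH, number 20, lay just under the highest control, number 31. The kinases upstream had log2 fold changes of −0.08 for *IKBKB* (SE 0.09, edgeR adjusted p = 0.506) and −0.26 for *CHUK* (SE 0.24, edgeR adjusted p = 0.375), with groups that overlapped. With library size alone, where the median of all symbols was 0.48, *IKBKB* was at 0.40 and passed (edgeR adjusted p = 0.000611).

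Genes of the IkB family went separate ways. *NFKBIE* (IkB epsilon) had between 3.22 and 5.82 CPM in controls (median 4.19) and between 12.8 and 19.2 CPM in NASH (median 14.0). It rose 3.3-fold without overlap (log2 fold change 1.72, SE 0.17, edgeR adjusted p = 3.35e-06). *NFKBID*, a nuclear family member, was between 1.57 and 3.45 CPM and between 4.32 and 5.70 CPM, again without overlap (log2 fold change 1.13, SE 0.16, edgeR adjusted p = 8.04e-05). *NFKBIA*, the inhibitor that NF-kB itself induces and that closes the feedback loop, was between 51.2 and 102 CPM in controls and between 72.7 and 102 CPM in NASH. Its log2 fold change of 0.32 (SE 0.15) had an edgeR adjusted p of 0.0906. Control 56 was the highest control, and without it *NFKBIA* passed with a log2 fold change of 0.44 (edgeR adjusted p = 0.0102), 1 of 5 alternatives among 23 in which it did, the other 4 being changes of scaling or filter.

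*NFKBIB* and *NFKBIL1* had log2 fold changes of −0.23 (SE 0.13) and −0.19 (SE 0.13) and did not pass (edgeR adjusted p = 0.163 and 0.264). *NFKBIZ*, a nuclear coactivator of the family, fell by 0.63 on the log2 scale (SE 0.23, edgeR adjusted p = 0.0312), from between 82.8 and 225 CPM in controls to between 86.7 and 107 CPM in NASH. Its groups overlapped, its count row also carries the symbol *NXPE3*, so the reads of these genes cannot be told apart, and the edgeR adjusted p of *NFKBIZ* exceeded 0.05 in 7 of the 12 fits without a single animal (controls 5, 10 and 56, NASH animals 2, 9, 20 and 41), up to 0.0755 without control 5. The call was lost in 13 of 23 alternatives in all, the other 6 being changes of scaling, tool, filter or threshold. Of the 47 genes only *NFKBIZ* shared its row with another symbol.

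**Figure D3:**
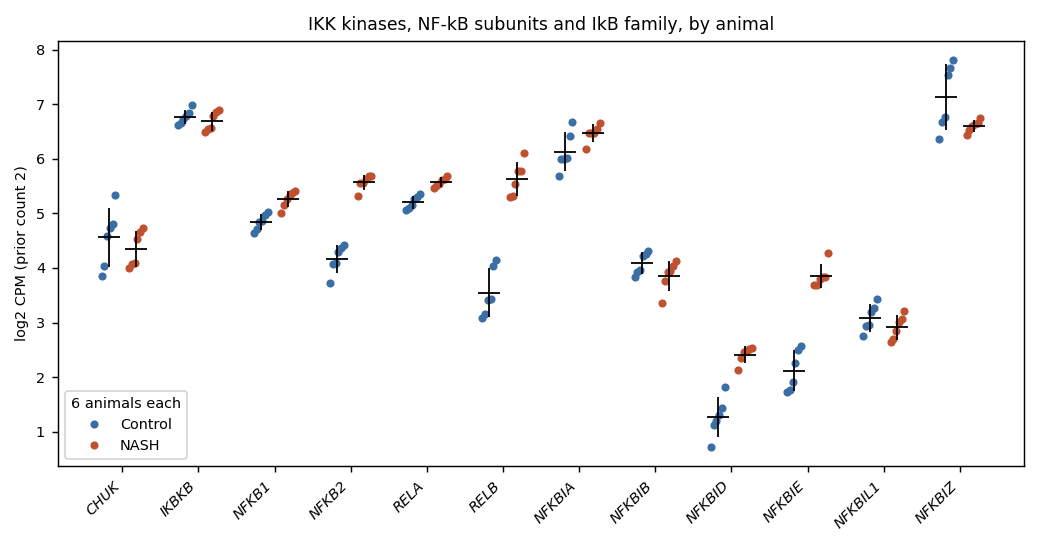
Log2 CPM of the 2 IKK kinases, 4 NF-kB subunits and 6 IkB family genes, with 1 point per animal, controls in blue and NASH in red, and the mean ± SD of 6 animals in black. *NFKB2*, *RELB*, *RELA*, *NFKBID* and *NFKBIE* are higher in every animal with NASH, whereas the groups overlap for the kinases, *NFKB1* and the other IkB genes.

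TNFAIP genes are a set by name, some after their induction by TNF and the TNFAIP8-like ones after a related protein, and have diverse functions. Of the 6 measured, 5 rose without overlap between groups and *TNFAIP1* did not pass, with a log2 fold change of −0.14 (SE 0.28, edgeR adjusted p = 0.694). Over all symbols, 27.9% rose and 18.4% were higher without overlap. *TNFAIP6* (TSG-6), a secreted hyaluronan-binding protein, had between 0.279 and 1.24 CPM in controls (median 0.638) and between 5.02 and 8.14 CPM in NASH (median 6.16). At most 27 counts in a control stood against at least 172 in an animal with NASH, and the rise was 9.28-fold (log2 fold change 3.21, SE 0.28, edgeR adjusted p = 1.26e-06). *TNFAIP2*, which takes part in membrane protrusion, had between 1.36 and 3.90 CPM (median 3.19) and between 16 and 24.3 CPM (median 18.3), 6.46-fold higher (log2 fold change 2.69, SE 0.20, edgeR adjusted p = 4.46e-07).

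*TNFAIP3* (A20), a ubiquitin-editing enzyme that shuts NF-kB signalling down, had between 7.38 and 14.8 CPM in controls (median 11.4) and between 19.3 and 29.9 CPM in NASH (median 25.0). The rise was 2.18-fold (log2 fold change 1.12, SE 0.16, edgeR adjusted p = 8.08e-05). *TNFAIP8L3*, of a family of lipid transfer proteins, had between 1.0 and 2.33 CPM (median 1.54) and between 3.05 and 4.47 CPM (median 4.09), with a log2 fold change of 1.29 (SE 0.19, edgeR adjusted p = 7.74e-05). *TNFAIP8L2* (TIPE2), which restrains immune receptor signalling, rose by 0.95 on the log2 scale (SE 0.16, edgeR adjusted p = 0.000229), and control 5 was again well below the other controls.

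Some of the genes could be set against each other within an animal, where the library scaling cancels except for genes with few counts, such as *TNF*, through the prior count that is added. Of the 47 genes, 8 stood in 4 pairs on consecutive StringTie loci, and the 4 NF-kB subunits gave 6 further pairs. The log2 ratio of a pair was compared between the groups with a two-sided exact permutation test, 6 animals against 6, and adjusted over the 10 pairs. The smallest p this design allows is 0.00216. The pairs were chosen after the values of the genes were seen, and the 6 subunit pairs share 4 genes, so these tests are not independent of each other. The ratio of *BIRC3* to *BIRC2* was 1.38 ± 0.33 in controls and 2.60 ± 0.27 in NASH (SD, n = 6 each, log2 scale), a difference of 1.22 (exact p = 0.00216, adjusted p = 0.00309). That of *TNF* to *LTB* went from −1.94 ± 0.33 to −0.59 ± 0.39, a difference of 1.35, and that of *TNFRSF1A* to *LTBR* from −0.58 ± 0.20 to 0.11 ± 0.10, a difference of 0.70, with the same exact and adjusted p (n = 6 each). In these 3 pairs the ratios of the groups did not overlap. *TNFSF12* and *TNFSF13* differed in their change by 0.42 (exact p = 0.0411, adjusted p = 0.0457), with overlap, and the adjusted p exceeded 0.05 without any single animal other than control 10 or NASH animal 65, up to 0.0914.

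Among the subunits, the change of *RELB* exceeded that of *RELA* by 1.72 and that of *NFKB1* by 1.68, and the change of *NFKB2* exceeded that of *RELA* by 1.04 and that of *NFKB1* by 0.996 (exact p = 0.00216 and adjusted p = 0.00309 for each, 6 animals per group). None of these 4 ratios overlapped between groups. The ratio of *RELB* to *RELA* was −1.66 ± 0.55 in controls and 0.06 ± 0.30 in NASH. *RELB* and *NFKB2* differed by 0.68 with overlap (exact p = 0.0325, adjusted p = 0.0406), and the adjusted p exceeded 0.05 without any single animal other than controls 5 and 32 or NASH animals 2 and 65, up to 0.0812. For *NFKB1* and *RELA* the ratio ranged from −0.50 to −0.17 in controls and from −0.50 to −0.16 in NASH (difference 0.04, exact p = 0.582), which does not show that they change alike.

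**Figure D4:**
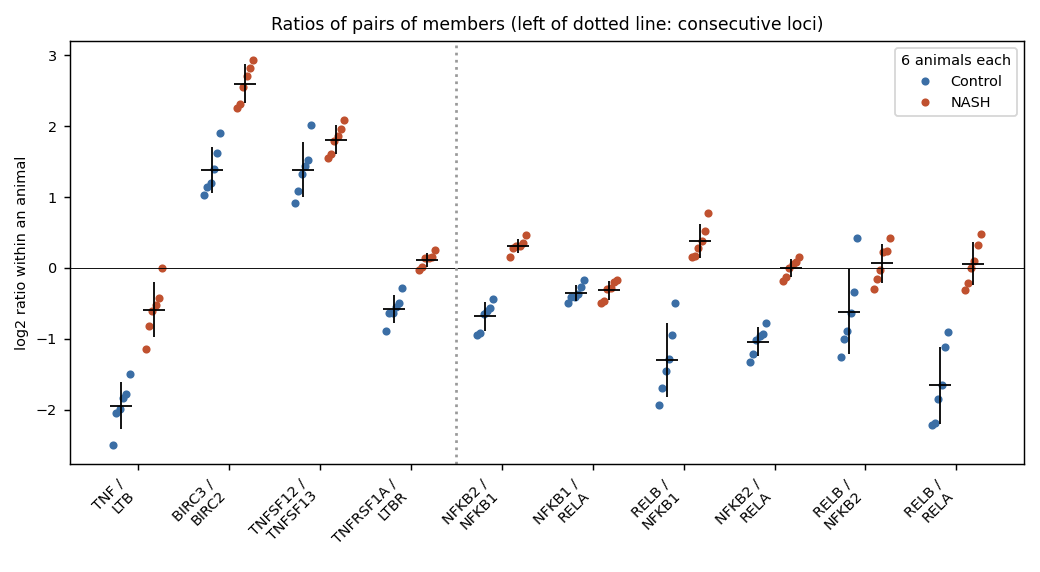
Log2 ratio of the CPM of 10 pairs of genes within each animal, with 4 pairs on consecutive loci left of the dotted line and 6 pairs of NF-kB subunits right of it, controls in blue, NASH in red and the mean ± SD of 6 animals in black. The ratios of the groups are apart in 7 of the pairs, and overlap for *TNFSF12* to *TNFSF13*, *NFKB1* to *RELA* and *RELB* to *NFKB2*.

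The animals of a group differed among themselves without a constant order. Over the 29 genes that rose, each of the 6 animals with NASH was the highest of its group for between 2 and 8 genes and the lowest for between 3 and 8. Their mean deviation from the group was between −0.09 (animal 65) and 0.06 (animal 41) on the log2 CPM scale. Among controls, animal 5 was the lowest for 13 of the 28 genes with a count in any control and the highest for 4, *BIRC3*, *RELB*, *TNFRSF4* and *TRAF5*, with a mean deviation of −0.17. It had the second-smallest total, 17414347 counts. The median SD of log2 CPM between controls was 0.35 over the 47 genes and 0.23 over all symbols, and between animals with NASH 0.22 and 0.19.

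Genes of the pathway outside the symbol rule were read from short lists of well-known members. Of 13 further superfamily members, 4 were in the table, and 2 of them rose. The share called in either direction, 50%, was near the 53.9% of all symbols, of which 27.9% were higher. *FAS*, the death receptor of FASLG, rose from 43.0 ± 5.63 to 57.9 ± 4.77 CPM (SD, n = 6 each) without overlap (log2 fold change 0.43, SE 0.09, edgeR adjusted p = 0.00133). *RELT*, with at most 10 counts in a control, had 0 to 0.673 CPM in controls and 0.557 to 1.96 CPM in NASH (log2 fold change 2.21, SE 0.60, edgeR adjusted p = 0.00733). *CD40*, the costimulatory receptor of B cells and macrophages, and *NGFR*, a neurotrophin receptor, had log2 fold changes of 0.35 (SE 0.16) and 0.33 (SE 0.21) and did not pass (edgeR adjusted p = 0.0868 and 0.21), although *CD40* did without control 31 (0.0422) or NASH animal 20 (0.0333).

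For the shedding of TNF from the cell surface, all 6 listed genes were measured, of which 4 rose and 1 fell (83.3% called against 53.9% of all symbols), with a median log2 fold change of 0.49. *RHBDF1*, which guides the sheddase ADAM17 to the surface, went from between 8.80 and 12.4 CPM in controls to between 17.6 and 26.7 CPM in NASH (log2 fold change 1.17, SE 0.11, edgeR adjusted p = 3.53e-06). *ADAM17* itself went from 24.1 ± 3.68 to 34.2 ± 3.30 CPM (SD, n = 6 each, log2 fold change 0.51, SE 0.10, edgeR adjusted p = 0.00116), and the related *ADAM10* rose by 0.71 (SE 0.08, edgeR adjusted p = 6.83e-06) and *RHBDF2*, the partner of ADAM17 in immune cells, by 0.47 (SE 0.14, edgeR adjusted p = 0.0118). *FURIN*, a protease that matures ADAM17, fell from between 360 and 426 CPM to between 144 and 306 CPM (log2 fold change −0.69, SE 0.15, edgeR adjusted p = 0.00172). *TIMP3*, the inhibitor of ADAM17, had a log2 fold change of −0.19 (SE 0.20) and did not pass.

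The list of upstream kinases and ubiquitin machinery had 19 of its 20 genes measured. Of these 5 rose and 3 fell, and the median was −0.05 on the log2 scale. This was 42.1% called, below the 53.9% of all symbols. *IKBKE*, an IKK-related kinase, rose most, from between 0.715 and 3.90 CPM to between 12.4 and 15.1 CPM (log2 fold change 2.17, SE 0.25, edgeR adjusted p = 1.41e-05). *BCL3*, a nuclear IkB protein that pairs with NFKB2 and NFKB1 products, rose by 1.02 (SE 0.14, edgeR adjusted p = 5.03e-05), and *TAB1*, the partner of the kinase MAP3K7, by 0.72 (SE 0.13, edgeR adjusted p = 0.000441). *MAP3K5*, a stress kinase of the TNF pathway, fell by 0.63 (SE 0.13, edgeR adjusted p = 0.0013), *SHARPIN*, of the linear ubiquitin ligase, by 0.47 (SE 0.09, edgeR adjusted p = 0.000559) and *CYLD*, a deubiquitinase that curbs NF-kB, by 0.35 (SE 0.09, edgeR adjusted p = 0.00453) on the log2 scale, and with library size alone, where the median of all symbols was 0.48, *SHARPIN* and *CYLD* were at 0.0052 and 0.12. *MAP3K14*, the kinase of the alternative pathway, was between 16.5 and 22.1 CPM in controls and between 16.4 and 26.9 CPM in NASH (log2 fold change 0.23, SE 0.12, edgeR adjusted p = 0.131), and passed without NASH animal 11 (0.30, edgeR adjusted p = 0.0347).

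Effectors of death receptors had 12 of 17 listed genes measured, of which 9 rose and 1 fell, or 83.3% called against 53.9% of all symbols. Their median was 0.82 on the log2 scale. Highest were *APAF1*, the scaffold of the apoptosome (log2 fold change 1.21, SE 0.10), and the necroptosis genes *MLKL* (1.16, SE 0.19) and *RIPK3* (1.15, SE 0.16), with edgeR adjusted p-values of 1.26e-06, 0.000228 and 6.44e-05. *MLKL*, the membrane executioner, had between 5.57 and 16.4 CPM in controls and between 23.3 and 29.7 CPM in NASH, and *RIPK3* between 1.86 and 4.32 and between 7.14 and 8.42 CPM. Neither overlapped between groups. *CFLAR* (c-FLIP), an NF-kB target that blocks caspase 8, rose from between 55.1 and 86.9 CPM to between 90.9 and 141 CPM (log2 fold change 0.73, SE 0.13, edgeR adjusted p = 0.000492). *DIABLO*, a mitochondrial antagonist of IAP proteins, fell by 0.39 on the log2 scale (SE 0.07, edgeR adjusted p = 0.000597) and was at 0.083 with library size alone, where the median of all symbols was 0.48. Its row carries another symbol as well. *BAX* (log2 fold change −0.19) shares its row with an FTL symbol, so its value is uncertain, and *CASP9* (0.24, SE 0.12, edgeR adjusted p = 0.0982) did not pass, except without NASH animal 41 (edgeR adjusted p = 0.0471).

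Of 30 listed NF-kB target genes, 19 were measured, and 9 rose, 2 fell and 8 did not pass, around a median of 0.41 on the log2 scale. The share called in either direction, 57.9%, was near the 53.9% of all symbols. By direction, 47.4% were higher and 10.5% lower, against 27.9% and 26.0% of all symbols. Without control 5 the number that fell was 4. The chemokines *CCL2* (log2 fold change 5.93, SE 0.42), *CCL20* (3.62, SE 0.49) and *CXCL8* (2.88, SE 0.28) rose most. In controls *CCL2* had between 2 and 23 counts and *CCL20* between 0 and 6, so the size of their rise is uncertain. *CXCL8*, the neutrophil attractant, had between 0.205 and 0.688 CPM in controls and between 2.45 and 3.72 CPM in NASH (edgeR adjusted p = 3.3e-06), on between 4 and 15 counts in controls. At the other end, *GADD45B*, a stress sensor, fell from between 45.4 and 98.5 CPM to between 24.7 and 34.7 CPM (log2 fold change −1.24, SE 0.16, edgeR adjusted p = 3.48e-05), and *CCL5*, a T cell chemokine, fell by 0.83 on the log2 scale (SE 0.18, edgeR adjusted p = 0.00145). *CXCL10* had a log2 fold change of −0.42 (SE 0.21, edgeR adjusted p = 0.107), and without control 5 it passed at −0.53 (edgeR adjusted p = 0.0299).

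**Figure D5:**
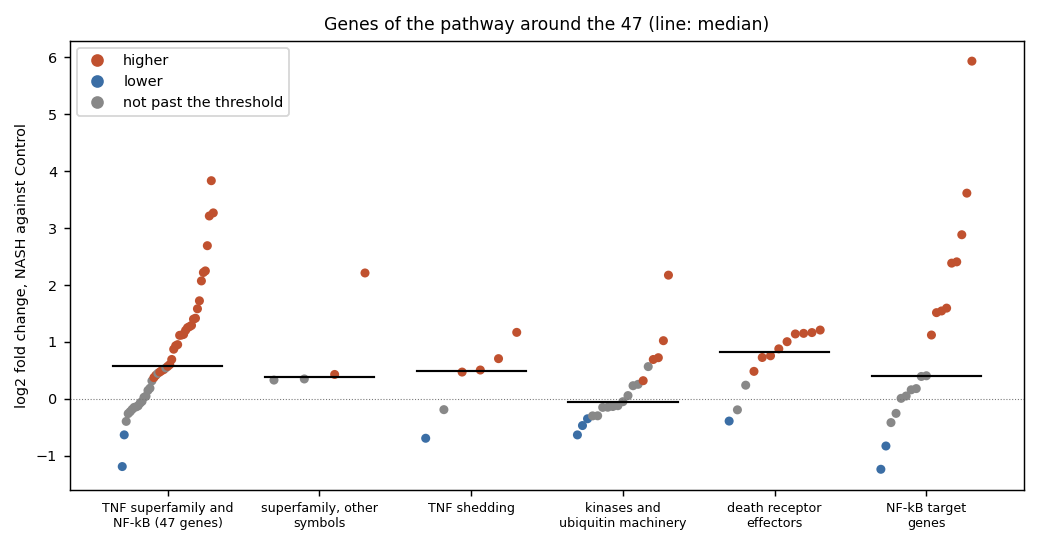
Log2 fold change of NASH against control for the 47 genes and for 5 lists of genes around them, with 1 point per gene, red for higher, blue for lower and grey for not past the threshold, and a line at the median. The medians are 0.57 for the 47 genes, 0.39 for superfamily members with other symbols, 0.49 for TNF shedding, −0.05 for kinases and ubiquitin machinery, 0.82 for death receptor effectors and 0.41 for NF-kB target genes, and *TNFSF18* is drawn at its lower bound.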

How the data were processed

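Liver mRNA of 6 guinea pigs with NASH and 6 controls was sequenced by the authors as stranded single reads, trimmed with Trimmomatic 0.38.0, mapped with HISAT2 2.1.0 to Cavpor3.0, without multimapped reads, and quantified with StringTie 1.3.6. The deposited raw counts per locus carry no symbols. The deposited log2 values are rlog values of DESeq2 for orthologue symbols whose row had at least 200 counts in total.

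Symbols were assigned to count rows by rerunning rlog on the counts and matching its output to the deposited values, which differed by at most 8e-07 (log2). The 11896 symbols are covered by 11031 rows. In simulated data 100% of 2625 symbols were paired rightly.

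Counts were tested in R 4.3.3 with edgeR 4.0.16 (TMM factors, library sizes from all deposited rows, robust glmQLFit, glmQLFTest), adjusted by Benjamini-Hochberg over all symbols. The standard error is the absolute log2 fold change over the square root of F. Log2 CPM used a prior count of 2. Limits for a count of 0 were taken as 3 counts and cover counting error only. On simulated counts of 11031 genes, edgeR recovered 95.5% of 200 genes changed 4-fold and 80% of those changed 2-fold, with 3 and 10 calls on unchanged genes, and made 0 calls where no gene was changed. At most 200 genes were changed there, whereas 53.9% of symbols were called in the data, so the simulation is no check of the scaling. Ratios of pairs were tested with scipy 1.17.1.

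Full values were given for *TNF*, its receptors, the NF-kB subunits, *BIRC2*, *BIRC3* and the 12 called genes that differed most in either direction, and for further genes chosen after their values were seen, as were the pairs compared. From other lists the 3 highest and 3 lowest genes and *CFLAR*, *RHBDF1*, *ADAM17*, *MAP3K14*, *CD40* and *FAS* were named. The genes and lists were chosen with earlier results of these data known. Alternatives were other scaling factors, DESeq2 1.42.0, limma 3.58.1 with voom or on rlog values, other filters and thresholds, and each animal left out. No genome or sequence of the build was used here, so no coordinate is given.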

Additional observations from a re-analysis of the deposited data

Results flagged for a closer look

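An animal far from the other 5 of its group was looked for in log2 CPM in 93 groups of 6 animals, where the gap to the nearest animal, relative to the range of the group, had to exceed Dixon's critical value at 95%. Chance gives about 5% of groups, and 7 were found. Control 5 was lowest for *TNFRSF1B* (log2 CPM 2.03, next control 2.90) and for *TNFAIP8L2* (2.05, next 2.95), and highest for *BIRC2* (6.19, next 5.73). Control 31 was highest for *LTBR* (5.63, next 5.38). Control 32 was lowest for *TRAF4* (4.68, next 5.37). NASH animal 2 was highest for *NFKBIE* (4.27, next 3.84) and lowest for *TNFSF15* (1.39, next 1.87).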

How the results depend on the processing

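No paired analysis was possible because the groups share no animal number. Over 23 alternatives for each of the 47 genes, 997 of 1081 values kept direction and side of the threshold, 47 lost the call, 21 gained it and 16 turned. A value that turned was counted only as turned, whether or not it passed. The cause was not tested in any case. Of the 47 genes, 27 to 29 rose and 1 to 3 fell when single animals were left out, with a median between 0.54 and 0.69. Of the pathway genes, 29 to 31 rose and 7 to 9 fell. The number of the 47 that fell was 1 in place of 2 with upper quartile factors, library size alone, limma-voom, limma on rlog values, every row with a count or an adjusted p under 0.01. With DESeq2 it was 3, *TRAF4* being added, and 9 pathway genes fell in place of 7. Tested against a log2 fold change of 1 (glmTreat), 10 of the 47 rose and 0 fell, and 7 and 0 of the pathway genes. The median was 1.05 with library size alone and 0.28 on rlog values, which are shrunken. Library size alone gave 46 higher and 1 lower pathway genes in place of 29 and 7. Of the 47 genes it gave 39 higher in place of 29. Without overlap were then 33 of the 47 in the higher direction in place of 24, and 0 in the lower direction in place of 1. Over named genes, single animals left out gave log2 fold changes from −1.34 (*GADD45B*) to 8.80 (*TNFSF18*, a fitted value that depends on the prior count). The pair *TNFSF12* and *TNFSF13* then differed by 0.33 to 0.55, and *RELB* and *NFKB2* by 0.56 to 0.89.

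These genes, all but *SHARPIN*, *CYLD* and *DIABLO* under the threshold with TMM factors, turned to higher in NASH. With library size alone, which moved the median of all symbols to 0.48, this gave *BIRC2* 0.44, *CHUK* 0.22, *IKBKB* 0.40, *LTBR* 0.35, *NFKBIB* 0.25, *NFKBIL1* 0.28, *TNFAIP1* 0.34, *TNFRSF9* 0.32, *TRAF4* 0.076, *TIMP3* 0.29, *MAP3K7* 0.20, *TAB2* 0.34, *TAB3* 0.17, *TBK1* 0.36, *RNF31* 0.32, *RBCK1* 0.32, *SHARPIN* 0.0052, *CYLD* 0.12, *TNIP1* 0.42, *BAX* 0.29, *DIABLO* 0.083, *CXCL10* 0.051 and *STAT5A* 0.22, of which *RNF31* shares its row with *IRF9* and *REC8* and *STAT5A* with *STAT5B*. Upper quartile factors gave *BIRC2* 0.032 and *TNIP1* 0.022, every row with a count *BIRC2* 0.045, *IKBKB* 0.012 and *TNIP1* 0.036, and TMM factors without the 20 largest rows, an alternative chosen after seeing the data as were those of the pairs, *BIRC2* 0.0029. Without single animals the sign of *BIRC2*, *TRAF7*, *TRADD*, *TANK*, *IRF1* and *BCL2A1* turned, with values from −0.07 to 0.07. Genes with few counts, such as *TNF*, *TNFRSF11A* and *RELT* in controls, are limited by depth.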
